A study of Mus musculus with 10 samples.

Results

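The genes described here are the 10 mouse genes of MHC class II antigen presentation named H2-Aa, H2-Ab1, H2-Eb1, H2-DMa, H2-DMb1, H2-DMb2, H2-Oa, H2-Ob, Cd74 and Ciita. They were chosen by name, for their function, from the 52550 genes of the deposited table. RNA was sequenced from 2 kinds of dendritic cell precursor of the spleen, pre-cDC2 (titled Ly6C) and pre-cDC1 (titled DN), of C57BL/6 mice that were either CD11c-cre Adam10fl/fl (KO) or wild type (WT). In the KO, the floxed sheddase gene Adam10 is removed by a Cre that the CD11c (Itgax) promoter drives, so deletion is expected only in cells that have used this promoter. The groups held 2 KO pre-cDC2, 2 WT pre-cDC2, 3 KO pre-cDC1 and 3 WT pre-cDC1 libraries, and the labels of the WT group name neither the Cre nor the floxed allele. The labels do not say that replicates came from separate animals, so p-values measure only the spread between these libraries, which may be technical.

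MHC class II molecules are pairs of an α and a β chain that present peptides from endosomes to CD4+ T cells. H2-Aa and H2-Ab1 encode the α and β chains of I-A. H2-Eb1 encodes the β chain of I-E, whose α chain gene, H2-Ea, is not functional in C57BL/6 mice. Cd74 encodes the invariant chain, which escorts new class II pairs to endosomes and fills their groove. H2-DM, made of H2-DMa with H2-DMb1 or H2-DMb2, exchanges the last fragment of the invariant chain for peptide, and H2-DO, made of H2-Oa and H2-Ob, holds H2-DM back. Ciita encodes the coactivator that sits on RFX, CREB and NF-Y proteins bound to class II promoters, and dendritic cells are the cell type best known for abundant class II.

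Of the 10 genes, 8 lie in the class II region of chromosome 17, between the start of H2-Oa at 34092340 and the end of H2-Eb1 at 34316674 (GRCm38). Ciita lies on chromosome 16, at 10480059 to 10528418. RefSeq promoters (GRCm38.p6, 250 bases before to 50 after the start) were found for 7 of the 10 genes. The sequences below are shown because 6 of these 7 genes carry the same pair of short motifs in the same order and at nearly the same distance. Of the 6, H2-DMb1 and H2-DMb2 are near-identical neighbours, so their matches are not separate cases. Capitals mark the core of the X box, to which RFX binds (CNNNNAAC), and the Y box, to which NF-Y binds (TGATTGG). Each sequence is written 5′ to 3′ on the strand of its gene.
H2-Aa, chr17:34287863-34287911, minus strand: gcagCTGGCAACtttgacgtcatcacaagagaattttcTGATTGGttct
H2-Eb1, chr17:34305769-34305816, plus strand: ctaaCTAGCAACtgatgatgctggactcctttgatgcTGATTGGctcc
H2-DMb1, chr17:34153090-34153138, plus strand: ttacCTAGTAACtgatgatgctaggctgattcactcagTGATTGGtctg
H2-DMb2, chr17:34145119-34145167, plus strand: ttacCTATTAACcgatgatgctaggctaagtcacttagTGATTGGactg
H2-Oa, chr17:34092296-34092344, plus strand: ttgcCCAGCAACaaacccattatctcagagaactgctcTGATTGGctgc
H2-Ob, chr17:34238811-34238856, plus strand: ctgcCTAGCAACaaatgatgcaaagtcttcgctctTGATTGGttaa

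The 2 motifs were 23 to 26 bases apart in these promoters, and a distance of 15 to 40 bases was searched on both strands. The pattern was written after these sequences had been seen. Of 32851 RefSeq promoters, 0.636% held the pair on either strand and 7.82% held the Y box on either strand, with or without the X core. Neither of the 2 promoters listed for H2-DMa held these letters. A match is a description of the letters, not a binding site. On the strand of the gene, where 0.283% of the promoters held it, the pair was found for 82 other genes, of which 39 could be tested for the difference between the cell types described below. Of these, 11 (28.2%) were called lower in pre-cDC2 and 2 (5.13%) higher, with a median difference of -0.06 log2. The 11 include H2-Eb2, a further class II gene described below. Of all tested genes, 13.9% were called lower and 15.5% higher.

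Values are log2 RPKM, the base-2 logarithm of read number divided by gene length and library size, as the authors deposited them, so that levels of different genes can be set side by side and 1 unit is a 2-fold difference. Library totals, recovered from these values, were 7861620 to 13177237 reads, and the class II genes had 146 to 347017 reads per library. All 10 passed the filter on low values (log2 RPKM above 0 in at least 2 libraries), as did 14787 genes in all. Differences were tested with limma in 1 fit of all libraries, and a gene is said to be called where its Benjamini-Hochberg adjusted p over all tested genes was below 0.05. ± after a difference is its standard error.

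Adam10 had 909 and 742 reads in KO pre-cDC2, against 228 and 1261 in WT pre-cDC2, and 9, 3 and 13 reads in KO pre-cDC1, against 28, 48 and 10 in WT pre-cDC1. Neither difference was called by limma (adjusted p 0.884 and 0.644), and a value over the whole gene does not check the deletion of part of it. The cDC1 markers summed to 262 to 465 RPKM in pre-cDC2, against 3749 to 4021 in KO and 3147 to 3368 in WT pre-cDC1. The cDC2 markers summed to 426 to 848 RPKM in pre-cDC2, against 30.8 to 51.5 in KO and 182 to 202 in WT pre-cDC1. All 12 T cell markers were detected in every pre-cDC2 library. Their sums were 991 and 882 RPKM in KO and 63.2 and 1247 RPKM in WT pre-cDC2 (replicates 2 and 3). In pre-cDC1 they summed to 2.96 to 4.51 RPKM in KO and to 6.05 to 12.5 RPKM in WT. All 10 NK cell markers were detected in every pre-cDC2 library too. Their sums were 1536 and 1390 RPKM in KO and 71.9 and 1714 RPKM in WT pre-cDC2. In pre-cDC1 the NK cell markers summed to 4.06 to 5.99 RPKM in KO and to 21.4 to 24.4 RPKM in WT. Within pre-cDC1, none of these sums overlapped between KO and WT libraries. The B cell markers, of cells that also express class II, summed to 14.2 to 34.7 RPKM in all libraries. WT pre-cDC2 replicate 2 stood apart from replicate 3: 5205 tested genes differed more than 2-fold between them, against 2632 to 3194 in the other replicate pairs.

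All 10 class II genes were lower in pre-cDC2 than in pre-cDC1. With the genotypes averaged, limma called all 10 lower, against 13.9% of all tested genes, by -1.38 ± 0.25 log2 for H2-DMa up to -3.91 ± 0.33 log2 for H2-Eb1. Their median difference was -3.03 log2, and that of all tested genes was 0.08 log2. In KO mice all 10 were called lower in pre-cDC2, against 10.1% of tested genes, and in WT mice 8 were called lower, against 6.59%. All 10 were lower in every pre-cDC2 library than in every pre-cDC1 library of the same genotype, as were 23.1% of tested genes in KO and 18.5% in WT mice, and for 8 this held over both genotypes together, as it did for 10.4% of tested genes. With all libraries kept, 4 were called in WT, 8 in KO and 9 with the genotypes averaged when no filter on low values was used (52550 genes tested). Of all genes, 0.773%, 1.32% and 2.33% were called lower there. Quantile normalization left 6 called in WT and 9 in KO mice, beside 7.24% and 12.3% of all tested genes called lower. A fit of only the groups compared left 2 called in WT mice, H2-Oa and H2-Ob, beside 2.32% of all tested genes called lower. The WT estimates were -4.34 to -1.82 log2, with 10 called, without WT pre-cDC2 replicate 2, where 10.6% of tested genes were called lower, and -3.44 to -0.44 log2, with 8 called, without replicate 3, where 6.24% were. In bulk libraries such as these, fewer cells that express a gene and less RNA of it per cell cannot be told apart. T and NK cell markers were high in the libraries in which the class II genes were low, and their part in the result was not tested.

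The chains of surface class II were all lower in pre-cDC2. H2-Ab1, the β chain of I-A, had 9.57 and 9.39 log2 RPKM in KO pre-cDC2 and 11.14 and 9.41 in WT pre-cDC2, against 13.65, 13.09 and 13.39 in KO pre-cDC1 and 13.65, 13.71 and 13.55 in WT pre-cDC1. H2-Aa, its α chain, had 8.77 and 9.01 log2 RPKM in KO pre-cDC2 and 10.69 and 9.02 in WT pre-cDC2, against 12.73, 12.11 and 12.55 in KO pre-cDC1 and 12.67, 12.83 and 12.56 in WT pre-cDC1. For both genes the highest pre-cDC2 library was WT replicate 2, and even that one lay below every pre-cDC1 library. H2-Ab1 was lower in pre-cDC2 by -3.90 ± 0.49 log2 in KO mice (limma adjusted p = 0.000716) and by -3.36 ± 0.49 log2 in WT mice (0.00288). H2-Aa was lower by -3.57 ± 0.46 log2 in KO (limma adjusted p = 0.000769) and by -2.83 ± 0.46 log2 in WT mice (0.0046). Quantile normalization gave smaller estimates, of -2.69 log2 in KO and -1.97 log2 in WT mice for H2-Ab1, with the WT call lost (limma adjusted p = 0.0544), and of -2.63 log2 in KO and -1.93 log2 in WT mice for H2-Aa.

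H2-Eb1, the I-E β chain that has no functional α partner in this strain, was in the 4 most abundant of the 10 genes in every group. It had 8.54 and 8.79 log2 RPKM in KO pre-cDC2 and 10.58 and 8.84 in WT pre-cDC2, against 13.26, 12.72 and 13.07 in KO pre-cDC1 and 13.18, 13.29 and 13.05 in WT pre-cDC1. The cell types did not overlap. The difference, -4.35 ± 0.47 log2 in KO mice (20.4-fold lower, limma adjusted p = 0.000352) and -3.47 ± 0.47 log2 in WT mice (11.1-fold lower, 0.00201), was the largest estimate of the 10 in KO mice. With quantile normalization it was -3.64 log2 in KO and -2.82 log2 in WT mice. H2-Ea-ps, the I-E α chain gene, had 0 reads in both KO pre-cDC2 libraries, against 1 and 0 in the WT ones. In pre-cDC1 it had 0, 0 and 3 reads in KO, against 2, 7 and 1 in WT mice. H2-Eb2, a close relative of H2-Eb1 that may share reads with it, had 5 and 3 reads in KO pre-cDC2 and 0 in both WT pre-cDC2 libraries. In pre-cDC1 it had 224, 125 and 104 reads in KO and 90, 128 and 154 reads in WT mice. H2-Eb2 was thus at least 48.5-fold lower in WT pre-cDC2 than in WT pre-cDC1, with 3 reads per library as the floor. Its promoter holds the same pair of motifs, which is printed for comparison with that of H2-Eb1.
H2-Eb2, chr17:34325536-34325583, plus strand: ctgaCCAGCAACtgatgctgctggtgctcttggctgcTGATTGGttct

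Cd74, the invariant chain, which lies on chromosome 18 at 60803848 to 60812652, was the most abundant of the 10 genes in every group. It had 11.15 and 11.00 log2 RPKM in KO pre-cDC2 and 12.71 and 11.12 in WT pre-cDC2, against 14.55, 14.00 and 14.22 in KO pre-cDC1 and 14.45, 14.50 and 14.43 in WT pre-cDC1. The cell types did not overlap, and Cd74 was lower in pre-cDC2 by -3.18 ± 0.55 log2 in KO mice (limma adjusted p = 0.00348) and by -2.54 ± 0.55 log2 in WT mice (0.0175). With quantile normalization the estimates were -1.54 log2 in KO mice and -1.001 log2 in WT mice, and both calls were lost (limma adjusted p = 0.104 and 0.355), while the average of the genotypes was -1.27 log2 (0.0493). The WT call was also lost without a filter on low values (adjusted p = 0.069), in a fit of only the groups compared (0.118) and when any 1 of the WT pre-cDC1 libraries was left out (0.0545 to 0.0622). Together, the 10 genes took 0.748% and 0.711% of all reads in KO pre-cDC2 and 2.14% and 0.716% in WT pre-cDC2. In pre-cDC1 they took 7.63%, 5.46% and 6.75% in KO and 7.44%, 7.76% and 7.09% in WT mice.

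**Figure D1:**
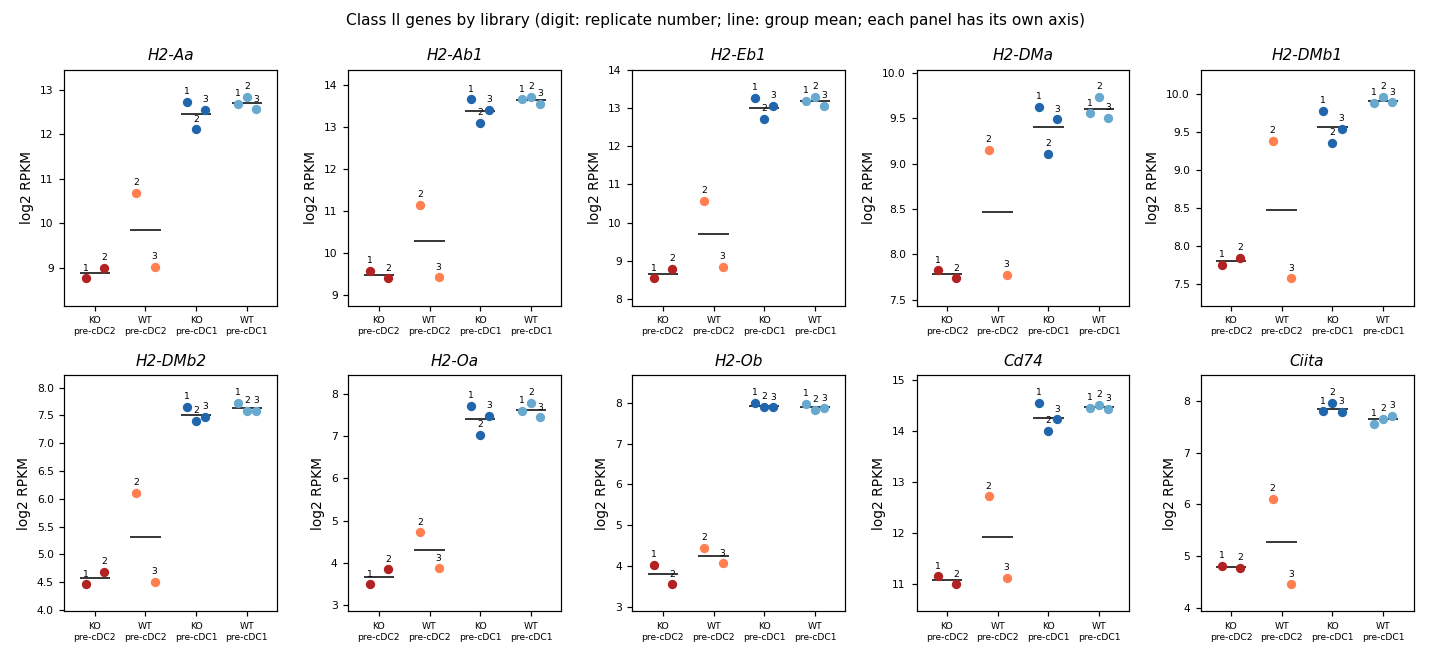
Level of each class II gene in each library, in log2 RPKM on the vertical axis, with a separate axis for each gene. Each point is a library with its replicate number, and the line is the group mean. WT pre-cDC2 replicate 2 is the highest pre-cDC2 library for all 10 genes, and for H2-DMa it reaches 9.15, above the 9.11 of the lowest pre-cDC1 library.

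The genes of the peptide exchanger H2-DM differed least. H2-DMa, the α chain, had 7.83 and 7.74 log2 RPKM in KO pre-cDC2 and 9.15 and 7.78 in WT pre-cDC2, against 9.62, 9.11 and 9.49 in KO pre-cDC1 and 9.55, 9.73 and 9.51 in WT pre-cDC1. H2-DMb1, a β chain, had 7.76 and 7.84 log2 RPKM in KO pre-cDC2 and 9.39 and 7.57 in WT pre-cDC2, against 9.78, 9.36 and 9.54 in KO pre-cDC1 and 9.88, 9.96 and 9.89 in WT pre-cDC1. Within each genotype the cell types did not overlap for either gene, but WT pre-cDC2 replicate 2 lay above the lowest KO pre-cDC1 library for both. In KO mice limma called both lower in pre-cDC2, H2-DMa by -1.62 ± 0.35 log2 (adjusted p = 0.0102) and H2-DMb1 by -1.76 ± 0.42 log2 (0.017). In WT mice neither was called, at -1.13 ± 0.35 log2 for H2-DMa (limma adjusted p = 0.0695) and -1.43 ± 0.42 log2 for H2-DMb1 (0.0598). Without WT pre-cDC2 replicate 2 both were called in WT mice, at -1.82 and -2.34 log2. Without a filter on low values, or without either of the KO pre-cDC2 libraries, neither was called in KO mice, and without KO pre-cDC1 replicate 1 H2-DMb1 was not.

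H2-DMb2, the second β chain gene, had a larger estimate than H2-DMb1. It had 4.46 and 4.69 log2 RPKM in KO pre-cDC2 and 6.11 and 4.50 in WT pre-cDC2, against 7.65, 7.40 and 7.47 in KO pre-cDC1 and 7.73, 7.58 and 7.58 in WT pre-cDC1. It was lower in pre-cDC2 by -2.93 ± 0.37 log2 in KO mice (limma adjusted p = 0.000703) and by -2.32 ± 0.37 log2 in WT mice (0.00417). The 2 β chain genes are near-identical neighbours, so the way reads were assigned between them could move either value.

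The H2-DO genes, whose product restrains H2-DM, lay far apart in the 2 cell types. H2-Oa, the α chain, had 3.50 and 3.86 log2 RPKM in KO pre-cDC2 and 4.73 and 3.88 in WT pre-cDC2, against 7.71, 7.03 and 7.47 in KO pre-cDC1 and 7.59, 7.79 and 7.44 in WT pre-cDC1. H2-Ob, the β chain, had 4.04 and 3.55 log2 RPKM in KO pre-cDC2 and 4.45 and 4.06 in WT pre-cDC2, against 8.00, 7.90 and 7.89 in KO pre-cDC1 and 7.98, 7.83 and 7.87 in WT pre-cDC1. The highest pre-cDC2 library of H2-Ob lay 3.38 log2 below the lowest pre-cDC1 library, the widest gap of the 10 genes. H2-Ob also had the smallest standard errors of the 10, with a difference of -4.14 ± 0.17 log2 in KO mice (17.6-fold lower, limma adjusted p = 1.23e-06) and of -3.64 ± 0.17 log2 in WT mice (12.4-fold lower, 3.53e-06). H2-Oa was lower by -3.72 ± 0.28 log2 in KO (limma adjusted p = 4.13e-05) and by -3.30 ± 0.28 log2 in WT mice (0.000121).

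Ciita, the coactivator of the other genes, followed the same order. It had 4.81 and 4.77 log2 RPKM in KO pre-cDC2 and 6.11 and 4.45 in WT pre-cDC2, against 7.81, 7.97 and 7.79 in KO pre-cDC1 and 7.57, 7.66 and 7.72 in WT pre-cDC1. The cell types did not overlap. Ciita was lower in pre-cDC2 by -3.07 ± 0.37 log2 in KO mice (8.38-fold, limma adjusted p = 0.00059) and by -2.37 ± 0.37 log2 in WT mice (5.16-fold, 0.00407).

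**Figure D2:**
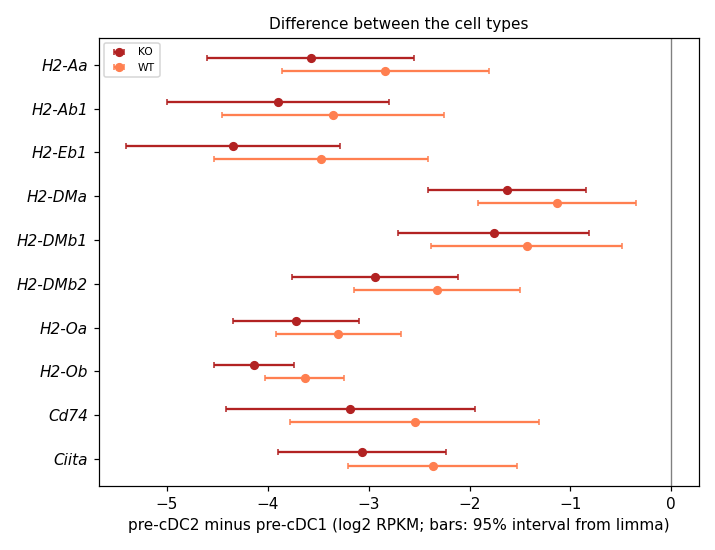
Difference between pre-cDC2 and pre-cDC1 in log2 RPKM on the horizontal axis, for each class II gene and genotype, with 95% intervals from limma as bars. All 20 estimates lie below 0, from -4.35 for H2-Eb1 in KO mice to -1.13 for H2-DMa in WT mice.

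The 6 most abundant genes, compared per length of gene, had the same order in both genotypes, and H2-Eb1 and H2-Aa had changed places between the cell types. In pre-cDC1, Cd74 averaged 14.26 ± 0.28 log2 RPKM in KO and 14.46 ± 0.04 in WT mice (SD, n = 3 each), followed by H2-Ab1, H2-Eb1 and H2-Aa in every library. In pre-cDC2, Cd74 averaged 11.07 ± 0.11 log2 RPKM in KO and 11.91 ± 1.13 in WT mice (SD, n = 2 each), followed by H2-Ab1, H2-Aa and H2-Eb1 in every library. H2-DMb1 and H2-DMa came next in all groups, and in pre-cDC2 they lay 0.02 log2 apart in KO and 0.01 log2 apart in WT mice, within the spread of the replicates. The last 4 were Ciita, H2-DMb2, H2-Oa and H2-Ob. In WT pre-cDC1, Ciita, H2-DMb2 and H2-Oa averaged 7.65, 7.63 and 7.61 log2 RPKM and did not differ beyond their spread. In KO pre-cDC2, Ciita and H2-DMb2 (4.79 and 4.57 log2 RPKM) lay above H2-Ob and H2-Oa (3.79 and 3.68), and the last pair did not differ beyond its spread.

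Ratios between 2 of these genes within a library, in which scaling to library size cancels, also differed between the cell types. The log2 ratio of H2-DMa to H2-Oa, exchanger over inhibitor, was 4.32 and 3.88 in KO pre-cDC2 and 4.42 and 3.90 in WT pre-cDC2, against 1.91, 2.08 and 2.01 in KO pre-cDC1 and 1.96, 1.95 and 2.06 in WT pre-cDC1. H2-DMa was thus 14.7 to 21.4 times H2-Oa in pre-cDC2 and 3.77 to 4.23 times H2-Oa in pre-cDC1. The log2 ratio of summed H2-DMb1 and H2-DMb2 to H2-Ob was 3.86 and 4.44 in KO pre-cDC2 and 5.08 and 3.67 in WT pre-cDC2, against 2.07, 1.79 and 1.96 in KO pre-cDC1 and 2.19, 2.38 and 2.29 in WT pre-cDC1. Every pre-cDC2 library lay above every pre-cDC1 library in both ratios, WT replicate 2 included. The differences between the cell types were 2.13 and 2.15 log2.

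The other 2 ratios differed less. The log2 ratio of Cd74 to the mean of H2-Aa and H2-Ab1 was 1.98 and 1.80 in KO pre-cDC2 and 1.80 and 1.90 in WT pre-cDC2, against 1.36, 1.40 and 1.25 in KO pre-cDC1 and 1.29, 1.23 and 1.37 in WT pre-cDC1. The log2 ratio of H2-Aa to H2-Ab1 was -0.80 and -0.38 in KO pre-cDC2 and -0.45 and -0.39 in WT pre-cDC2, against -0.92, -0.98 and -0.85 in KO pre-cDC1 and -0.98, -0.87 and -0.99 in WT pre-cDC1. Again the cell types did not overlap, with differences of 0.55 and 0.42 log2. For each of the 4 ratios the exact two-sided permutation test within genotype gave p = 0.01 (adjusted p = 0.01 over the 4), the smallest that its 100 splits can give. Between KO and WT the same ratios differed by -0.29 to 0.04 log2, with an adjusted p of 0.85 in the exact permutation test within cell type.

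**Figure D3:**
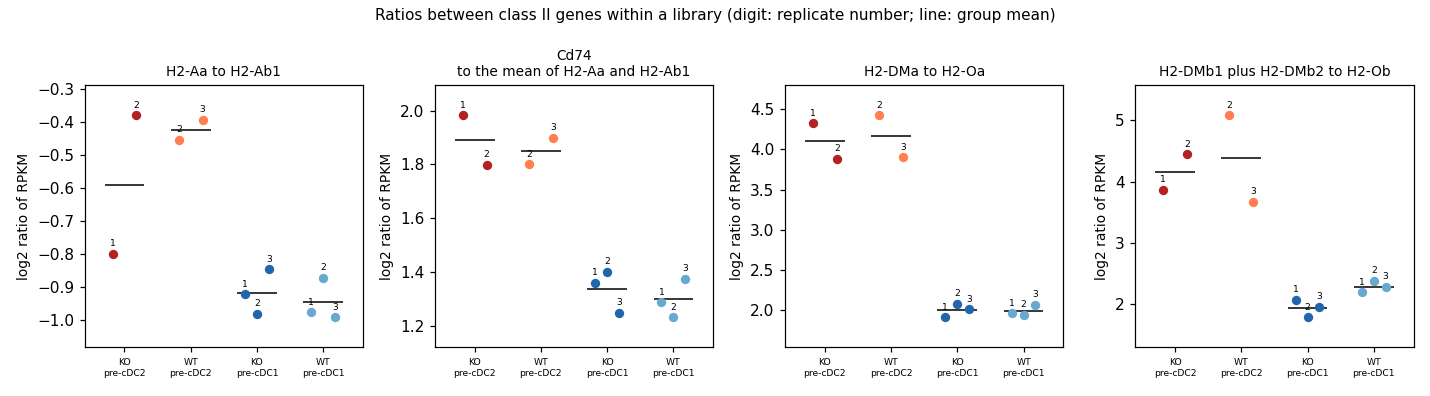
Log2 ratio of RPKM between class II genes of the same library on the vertical axis, with a separate axis for each ratio. Points are libraries with their replicate number and lines are group means. All 4 pre-cDC2 libraries lie above all 6 pre-cDC1 libraries in each ratio.

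Between the genotypes, no class II gene was called in pre-cDC2, where limma called 0.0676% of all tested genes in either direction. The 10 estimates were all below 0, from -1.04 ± 0.52 log2 for H2-Eb1 (95% interval -2.20 to 0.12) to -0.46 ± 0.19 log2 for H2-Ob (95% interval -0.89 to -0.03), with limma adjusted p of 0.723 to 0.848. Voom on the recovered reads called none of them either. H2-Ob was the 1 gene of the 10 with an unadjusted p below 0.05 in limma, as were 987 of all 14787 tested genes. H2-Aa, H2-Eb1, H2-Oa and H2-Ob, 4 of the 10, were lower in both KO libraries than in both WT libraries, which was so of 14.6% of all tested genes. The KO libraries lay close to WT replicate 3, however. Their mean was between -0.27 log2 (H2-Ob) and 0.34 log2 (Ciita) away from it, whereas WT replicate 2 exceeded WT replicate 3 by 0.39 log2 for H2-Ob to 1.81 log2 for H2-DMb1.

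Without WT replicate 2, 5 of the estimates were below 0 and 5 above, from -0.27 to 0.34 log2, and none was called by limma. Without WT replicate 3, all 10 were below 0, from -1.91 to -0.66 log2, and 8 were called, in a fit that called 1024 (7.09%) of the 14448 tested genes. WT replicate 2 was also the pre-cDC2 library with the lowest T and NK cell marker sums (63.2 and 71.9 RPKM) and with the highest sums of cDC2 markers (848 RPKM, against 426 to 432 in the other 3) and of plasmacytoid dendritic cell markers (1018 RPKM, against 378 to 572). Of the B cell markers, Cd79b had 393 reads in WT replicate 2, the library with the most reads (13177237). It had 133 reads in WT replicate 3 and 111 and 80 in KO pre-cDC2. Cd79a had 13 reads in WT replicate 2, fewer than the 35 in WT replicate 3, and 21 and 11 in KO pre-cDC2. The part of these cells in the class II values was not tested.

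**Figure D4:**
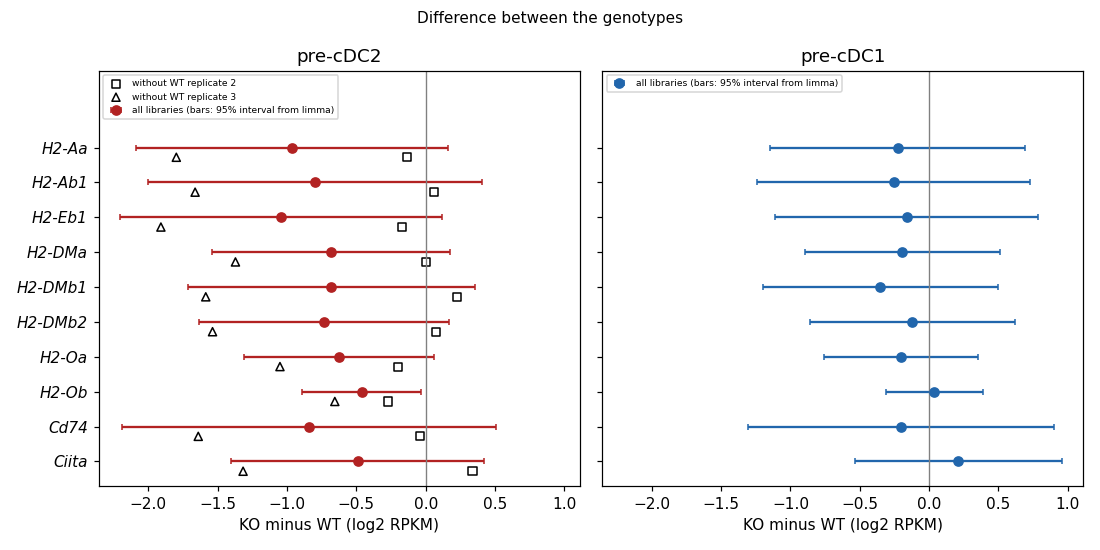
Difference between KO and WT in log2 RPKM on the horizontal axis for each class II gene, in pre-cDC2 and in pre-cDC1, with 95% intervals from limma as bars. Squares and triangles give the pre-cDC2 estimate without WT replicate 2 (-0.27 to 0.34) and without WT replicate 3 (-1.91 to -0.66).

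In pre-cDC1, where 3 libraries stood against 3, none of the 10 genes was called between the genotypes, and limma called 0.0271% of all tested genes. The estimates were -0.35 ± 0.38 log2 for H2-DMb1 to 0.21 ± 0.33 log2 for Ciita, with limma adjusted p of 0.867 to 0.997, and no gene of the 10 had an unadjusted p below 0.05 or was called by voom on the recovered reads. H2-DMb1 was lower in all 3 KO libraries than in all 3 WT libraries, as were 9.27% of tested genes. Ciita was higher in all 3 KO libraries, as were 7.88% of tested genes. The 95% intervals were -1.20 to 0.50 log2 for H2-DMb1, -0.54 to 0.96 log2 for Ciita and -1.24 to 0.73 log2 for H2-Ab1, and differences within these intervals were not excluded by these libraries. The narrowest interval was that of H2-Ob, -0.31 to 0.39 log2. KO replicate 2 was the lowest of the 3 KO libraries for 8 of the 10 genes, H2-Ob and Ciita being the exceptions. KO and WT pre-cDC1 libraries also did not overlap in the sums of cDC1, cDC2, T cell, NK cell and B cell markers given above. What these cells contributed to the class II estimates was not tested.

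Averaged over the cell types, the KO estimates were -0.60 to -0.14 log2, and none was called, against 0.108% of tested genes. The difference of the genotype effect between the cell types (pre-cDC2 minus pre-cDC1) was -0.88 to -0.33 log2, and none was called, against 0.0203% of tested genes. No gene of the 10 had an unadjusted p below 0.05 in either comparison, and voom on the recovered reads called none. Both counts rested on WT pre-cDC2 replicate 3, since without it 8 of the averaged estimates and 4 of these differences were called, in a fit that called 7.54% and 3.16% of all tested genes.

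**Figure D5:**
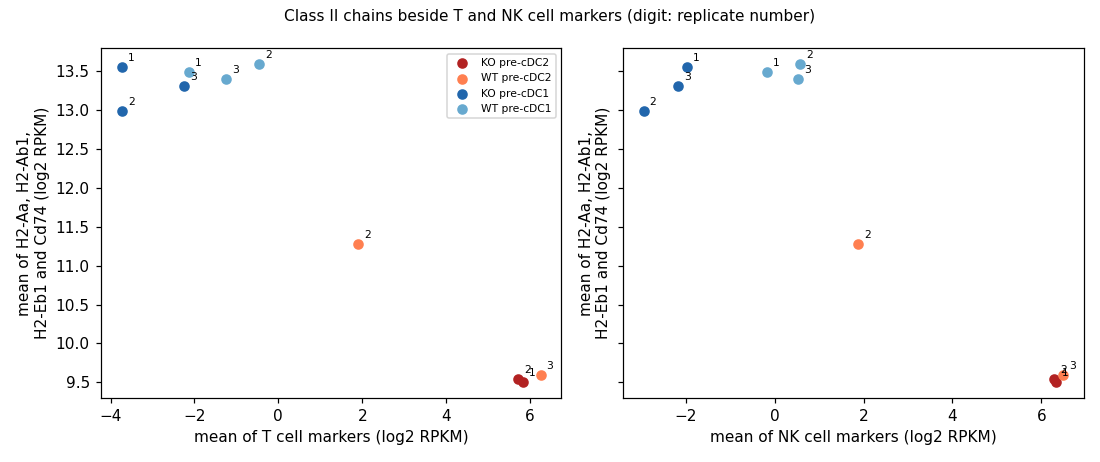
Mean log2 RPKM of H2-Aa, H2-Ab1, H2-Eb1 and Cd74 on the vertical axis against the mean log2 RPKM of the T cell markers (left) and of the NK cell markers (right), with 1 point per library and its replicate number. WT pre-cDC2 replicate 2 lies between the other 3 pre-cDC2 libraries, which have high T and NK cell markers, and the 6 pre-cDC1 libraries.

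Of the 7 genes for RFX, CREB and NF-Y subunits, which hold the Ciita product at class II promoters, limma called 1 higher and 1 lower in pre-cDC2 with the genotypes averaged, against 15.5% and 13.9% of all tested genes. Rfxank, a subunit of RFX, averaged 2.26 log2 RPKM in pre-cDC2 and 1.38 in pre-cDC1 (0.88 ± 0.26, limma adjusted p = 0.0291), and Rfx5, another subunit, 2.06 in pre-cDC2 and 2.77 in pre-cDC1 (-0.71 ± 0.23, adjusted p = 0.0479). None of the 7 was called within KO or within WT mice.

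The lists that follow are given with the genotypes averaged where no genotype is named, and their counts are of genes called by limma. Of all tested genes, 15.5% were called higher and 13.9% lower in pre-cDC2 with the genotypes averaged. In KO mice 20.8% were called in either direction and 10.1% lower, and in WT mice 11.5% and 6.59%. Of 13 tested genes known to act on Ciita transcription, 5 were called higher and 3 lower in pre-cDC2. In KO mice 4 were called higher and 3 lower, and in WT mice 1 higher and 2 lower. Irf8, a transcription factor on which cDC1 depend, was lower by -2.07 ± 0.22 log2 (limma adjusted p = 0.000159). Ifngr1, a chain of the interferon-γ receptor, was lower by -1.60 ± 0.25 log2 (0.0012), while Jak1, a kinase that binds this receptor, was higher by 2.04 ± 0.31 log2 (0.00116). Prdm1, which encodes the repressor BLIMP-1, had 201 and 76 reads in KO pre-cDC2 and 73 and 105 in WT pre-cDC2, against 1, 1 and 0 reads in KO pre-cDC1 and 2, 0 and 0 in WT pre-cDC1 (limma adjusted p = 0.00131). T and NK cells also express Prdm1 and Jak1, and their markers were high in the same libraries; their part was not tested.

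Of 10 genes for endosomal processing of antigen and invariant chain, 3 were called higher and 2 lower in pre-cDC2. Of all tested genes, 15.5% were called higher and 13.9% lower. The counts of the list were the same in KO mice, and in WT mice 3 were called higher and 1 lower. Psap, the precursor of the saposins, was lower by -2.55 ± 0.27 log2 (limma adjusted p = 0.000162). Higher were the proteases Ctsd, by 3.34 ± 0.36 log2 (0.000163), Lgmn, by 1.97 ± 0.24 log2 (0.00031), and Ctsl, by 2.41 ± 0.36 log2 (0.00106). Ctss, the protease that trims the invariant chain in dendritic cells, averaged 9.35 log2 RPKM in both cell types, with a difference of 0.01 ± 0.25 log2 (limma adjusted p = 0.991).

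Of 8 tested genes for the turnover of surface class II, 4 were called lower in pre-cDC2 and none was called higher. Of all tested genes, 13.9% were called lower and 15.5% higher. The estimates of the list were below 0 for 7 genes and above 0 for 1. In KO mice 4 were called lower as well, and in WT mice 2 were. March1 and Cd83 act against each other. March1, the ubiquitin ligase that sends class II to lysosomes, was lower by -1.88 ± 0.28 log2 (limma adjusted p = 0.000889), and Cd83, which opposes it, by -2.51 ± 0.36 log2 (0.000825). Rab7, a small GTPase of late endosomes, was lower by -0.54 ± 0.10 log2 (limma adjusted p = 0.0038), and Tsg101, of the ESCRT machinery, by -0.40 ± 0.13 log2 (0.0421).

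Of 10 genes of MHC class I presentation, 4 were called lower and 2 higher in pre-cDC2, against 13.9% and 15.5% of all tested genes. In KO mice 4 were called lower and 1 higher, and in WT mice 4 were called lower. Their median difference was -0.02 log2, beside -3.03 log2 for the class II genes and 0.08 log2 for all tested genes. The peptide transporter genes Tap1 and Tap2 were lower by -1.33 ± 0.10 and -1.08 ± 0.12 log2 (limma adjusted p = 1.85e-05 and 0.000156), and the chaperones Pdia3 and Calr by -1.29 ± 0.13 and -1.23 ± 0.13 log2 (0.000121 and 0.000177). Of the 4 tested genes for partners of CD74 as a receptor of the cytokine MIF, Cxcr4 was higher by 1.63 ± 0.29 log2 (limma adjusted p = 0.00237) and Cd44 lower by -0.36 ± 0.11 log2 (0.0332), with 1 of the 4 called in KO mice and none in WT mice.

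Maturation of dendritic cells changes class II synthesis and surface display. Of 8 tested maturation genes, 3 were called higher and 3 lower in pre-cDC2, against 15.5% and 13.9% of all tested genes. In KO mice 2 were called higher and 3 lower, and in WT mice 1 higher and 2 lower. Ccr7, the receptor that guides mature cells to lymph nodes, was higher by 5.39 ± 0.74 log2 (limma adjusted p = 0.00063), and the chemokine Ccl5 by 6.43 ± 0.86 log2 (0.000535). The costimulators Cd86 and Cd80 were lower, by -4.74 ± 0.10 log2 (limma adjusted p = 9.21e-09) and -2.11 ± 0.33 log2 (0.00134). T cells also express Ccr7, and T and NK cells Ccl5; their part was not tested. Between KO and WT, limma called none of the 60 genes of these 7 lists in pre-cDC2 or in pre-cDC1. An unadjusted p below 0.05 was found for 5 and 8 of them, and for 987 and 1335 of all 14787 tested genes.

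Of the marker lists, with the genotypes averaged, limma called higher in pre-cDC2 all 12 T cell, all 10 NK cell and 9 of 10 plasmacytoid dendritic cell genes. Also called higher were 8 of 9 cDC2 and 5 of 10 monocyte genes, with 1 monocyte gene called lower. Called lower were all 11 cDC1 genes, 4 of 7 cDC core genes, with 1 called higher, and 1 of 6 red pulp macrophage genes. Of 6 tested B cell genes, 2 were called higher and 3 lower. Of all tested genes, 15.5% were called higher and 13.9% lower. In KO mice the same numbers of T cell, NK cell, plasmacytoid dendritic cell and cDC2 genes were called higher, whereas in WT mice 8 of 12 T cell, 2 of 10 NK cell, 9 of 10 plasmacytoid dendritic cell, 1 of 9 cDC2 and 3 of 10 monocyte genes were. All 11 cDC1 genes were called lower in each genotype.

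Among 11380 named genes, those whose profile over the 10 libraries lay nearest to that of Ciita, by the root mean square difference of mean-centred log2 RPKM, were Plbd1 and Lrrk2 (0.12 log2 each), Kit (0.13), Acvrl1 (0.14) and Rab43 (0.15). Of the class II genes, H2-DMb2 lay nearest to Ciita (0.20 log2) and H2-DMa farthest (0.70 log2). Nearest to the mean profile of H2-Aa, H2-Ab1, H2-Eb1 and Cd74 were Ckb (0.19 log2), Pdia5 (0.22), Cbr3 (0.24), Tns3 (0.24) and Ifi211 (0.27). The libraries fall into 2 cell types, between which the difference was -2.89 log2 for Plbd1 and -2.79 log2 for Kit, a growth factor receptor, beside -2.72 log2 for Ciita.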

How the data were processed

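The authors deposited 1 table of log2 RPKM values for 10 libraries. Per the labels' protocols, RNA from PicoPure columns was amplified by SMARTSeq v2 and sequenced as read pairs. The submitters' processing notes name STAR 2.3, featureCounts 1.5.0, edgeR, R 3.3.3 and the build GRCm38. Not given in the sources used here are the annotation, the strand setting and the handling of reads shared by several genes. Whole reads were recovered from the values, which were whole within 0.001 for 51467 of 52550 genes, with a gene length from GENCODE M21 for 49035 of them and a length solved from the values for 2432, the class II genes included. SMARTSeq v2 has no molecular identifiers, so the floor of 3 reads covers counting error only.

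The deposited values of 14787 genes were fitted with limma 3.58.1 (R 4.3.3) as 4 group means, without a further pseudocount and with a variance trend, 6 residual and 3.31 prior degrees of freedom, and 7 comparisons. Tests were two-sided. Totals were 7861620 reads or more per library. The alternatives covered filters, normalization, variance models, pairing, left-out libraries and voom on recovered reads. The scripts were tested on simulated data. The class II genes, the 17 gene lists and the tests were chosen with earlier results of these data known. All 10 class II genes are named. Of each list other than the cell type markers, given as counts, genes past the threshold are named. Where more passed, these are the 4 with the smallest p, and where none did, up to 3. Named as well are H2-Eb2, Adam10, the 5 genes nearest in profile and Ctss, which was not called. H2-Ea-ps was not tested, since it did not pass the filter.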

Additional observations from a re-analysis of the deposited data

How the results depend on the processing

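All 620 values of the differences between the cell types, over 23 alternative settings, were below 0. Several settings, such as a changed filter or variance model or a left-out library of another group, keep the estimate itself. The values are thus not 620 separate checks. In WT mice, 8 class II genes were called lower in pre-cDC2. Without a filter this was 4, in a fit of only the groups compared 2, and with the replicate number as a block 2. Of all tested genes, 6.59% were called lower in WT mice, against 0.773%, 2.32% and 1.1% in these settings. In KO mice, 10 were called, against 6 with the replicate block, where the share of all tested genes fell from 10.1% to 3.77%. With the genotypes averaged, 10 were called, against 9 with that block, where the share fell from 13.9% to 7.36%. With the block, the limma adjusted p for Cd74 was 0.159 in KO, 0.316 in WT and 0.0746 averaged. The correlations of same-numbered libraries, in their deviations from the group means, were -0.03 to 0.03. With 2 libraries in each pre-cDC2 group, they cannot tell whether same-numbered libraries were paired. Voom on recovered reads, with library sizes implied by the deposited values, was chosen after seeing the data in place of the planned TMM scaling. Voom with TMM scaling had been run on the recovered reads before, and its values are not given here. With the implied library sizes, voom called 10 in each genotype, beside 7.18% of all tested genes called lower in WT and 9.41% in KO mice. With quantile normalization the KO minus WT difference of Cd74 in pre-cDC1 was 0. This method sets a value by the rank of the gene in its library. Equal ranks thus give 0 by construction, and this 0 does not measure the difference.

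Leaving out 1 library at a time, 0 to 8 class II genes were called between KO and WT in pre-cDC2, 0 to 8 with the cell types averaged and 0 to 4 for the interaction, the highest counts being those without WT pre-cDC2 replicate 3. In pre-cDC2 the KO minus WT difference ranged from -1.66 to 0.0628 log2 for H2-Ab1, -1.37 to 0.0015 for H2-DMa, -1.59 to 0.23 for H2-DMb1, -1.54 to 0.0719 for H2-DMb2 and -1.32 to 0.34 for Ciita, and averaged over the cell types from -0.55 to 0.27 for Ciita. The interaction ranged from -1.57 to 0.0939 log2 for H2-Aa, -1.41 to 0.32 for H2-Ab1, -1.18 to 0.19 for H2-DMa, -1.23 to 0.58 for H2-DMb1, -1.42 to 0.19 for H2-DMb2, -0.85 to 0.0019 for H2-Oa, -1.44 to 0.16 for Cd74 and -1.53 to 0.13 for Ciita. Every value above 0 was that without WT pre-cDC2 replicate 2. The KO minus WT differences of the log2 ratios ranged from -0.17 to 0.0368 for H2-Aa to H2-Ab1, -0.0064 to 0.0859 for Cd74 to the mean of H2-Aa and H2-Ab1, -0.16 to 0.11 for H2-DMa to H2-Oa and -0.64 to 0.0661 for summed H2-DMb1 and H2-DMb2 to H2-Ob. The cause of these changes was not tested.

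Counts over all genes moved more. KO and WT differed in 10 genes in pre-cDC2 (0 to 177 in the alternatives with all libraries, 5 to 1024 without 1), in 4 in pre-cDC1 (0 to 100, and 0 to 111), in 16 averaged (0 to 155, and 0 to 1090) and in 3 for the interaction (0 to 139, and 0 to 456). Between the cell types, 3074 genes were called in KO (1094 to 4014, and 1396 to 3845), 1697 in WT (217 to 1967, and 991 to 2722) and 4351 averaged (2209 to 4509, and 3025 to 4887).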
